A study of Homo sapiens with 8 samples.

Results

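The miR-200 family comprises miR-200a, miR-200b, miR-200c, miR-141 and miR-429. Its members were taken by name: of 9 listed arms, 7 have a row among the 594 miRNAs of the table, and all 7 passed the filter on low values. They are miR-200a-3p, miR-200b-3p, miR-200b-5p, miR-200c-3p, miR-141-3p, miR-141-5p and miR-429. The other 2, miR-200a-5p and miR-200c-5p, were not analysed here.

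The data are small RNA sequencing libraries from H1 cells, an established line of human embryonic stem cells, with 2 libraries for each of 4 genotypes. The mutant lines were engineered with CRISPR-Cas9. They carried the Dicer-S1344L mutation on both alleles (homozygous), carried it hemizygously, or were Dicer-null, and the fourth genotype was the wild type. The labels give the RNA samples of a genotype as biologically independent, and do not give how many clones stand behind each line.

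Dicer cuts the hairpin precursors of miRNAs into a short duplex of a 5p and a 3p strand, and has a pair of RNase III domains, each of which cuts 1 strand. The serine replaced in S1344L lies in the RNase IIIa domain, and the study asked what this cancer hotspot mutation does. The miR-200 family is best known in epithelial cells, where it represses the transcription factors ZEB1 and ZEB2 and thereby sustains E-cadherin. ZEB1 in turn represses the genes of the family. Embryonic stem cells in culture are themselves epithelial in form and express the family. The 5p strands of these hairpins are usually the passenger strands, which are degraded.

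The mature sequences are shown because the arms fall into seed groups and because near-identical arms limit how reads can be assigned. They are RefSeq's, on GRCh38.p14, with the seed (bases 2 to 8) in capitals. RefSeq gave 6 of the 7 arms, and miR-141-5p is named only. The first 3 share the seed AAUACUG, the next 2 the seed AACACUG, and the last is the 5p strand of miR-200b.
miR-200b-3p: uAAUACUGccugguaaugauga
miR-200c-3p: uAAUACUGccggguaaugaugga
miR-429: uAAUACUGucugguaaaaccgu
miR-200a-3p: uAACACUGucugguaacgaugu
miR-141-3p: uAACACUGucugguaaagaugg
miR-200b-5p: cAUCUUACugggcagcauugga

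Positions are counted from 1 at the 5′ end. The seed groups differ at 1 seed base, U4C from miR-200b-3p to miR-200a-3p. The pair miR-200b-3p and miR-200c-3p differs only by U11G and A22G over 22 bases, apart from the extra last base of miR-200c-3p. The pair miR-200a-3p and miR-141-3p differs only by C17A and U22G. How reads that fit both arms of such a pair were counted is not given in the sources used here, so the split within each pair is uncertain. miR-429 is more distinct, with 16 of 22 bases identical to miR-200b-3p, and its 6 substitutions (C9U, U17A, G18A, A19C, U20C and A22U) all lie outside the seed. Of the 594 miRNAs, 533 were matched to a sequence, and none outside the family carried either 3p seed.

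The members come from 2 clusters. The miR-200b, miR-200a and miR-429 hairpins lie on the plus strand of chromosome 1 between 1167104 and 1169087 (GRCh38), within the long noncoding host gene MIR200BHG. The miR-200c and miR-141 hairpins lie on the plus strand of chromosome 12 between 6963699 and 6964191, in an intron of the host gene MIR200CHG. The miR-200a hairpin lies between those of miR-200b and miR-429. Below are the hairpins of miR-200b and miR-429, with the annotated mature arms in capitals. They are shown because the ratio of miR-200b-3p to miR-429 was higher in every mutant library, S1344L or null, than in the wild type.
MIR200B: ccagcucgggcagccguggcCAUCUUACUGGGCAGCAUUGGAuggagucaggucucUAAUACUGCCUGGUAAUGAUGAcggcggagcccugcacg
MIR429: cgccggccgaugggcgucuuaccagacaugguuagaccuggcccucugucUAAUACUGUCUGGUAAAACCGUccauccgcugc
The name miR-429 gives no strand, but the arm occupies bases 51 to 72 of an 83-base hairpin and is a 3p strand by position, as miR-200b-3p is at bases 57 to 78 of 95. It is counted as a 3p arm below.

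Levels are in RPM, reads scaled to the authors' own denominator, with 0.5 of a read added by them. Reads assigned to miRNAs numbered 1000101 to 2289926 in the 4 S1344L libraries, 137655 and 165317 in the null libraries, and 2680973 and 2725756 in the wild-type libraries. Per unit of the denominator, hemizygous replicate 1 gave 0.729 miRNA reads, against 2.42 in hemizygous replicate 2, 2.18 and 2.43 in the homozygous libraries, 0.118 and 0.183 in the null libraries, and 2.09 and 2.33 in the wild-type libraries. Hemizygous replicate 1 therefore stands apart, with a median miRNA 1.93 log2 units below its partner. The 8 pluripotent markers (the miR-302, miR-367 and miR-371 to miR-373 arms) held 45.6% to 52.3% of the miRNA reads in mutant libraries, against 38.0% and 39.7% in wild-type libraries. The 3 fibroblast markers with a row reached at most 0.0175% and the 3 blood markers at most 0.0632%. The table holds no mRNA, so the Dicer genotype was not read from it.

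In the wild type the 3p arms of miR-141 and miR-200c were the most abundant of the family, and the passenger strands the least. miR-141-3p averaged 9152 ± 2010 RPM (SD, n = 2) and miR-200c-3p 8759 ± 347 RPM, and these overlapped. miR-200a-3p, at 2538 ± 1040 RPM, and miR-200b-3p, at 2322 ± 377 RPM, came next and also overlapped. Below them lay miR-429 at 853 ± 269 RPM, miR-141-5p at 153 ± 109 RPM and miR-200b-5p at 27.4 ± 13.9 RPM, each separated from the arm above it in both libraries. By mean RPM, miR-141-3p ranked 46th and miR-200b-5p 494th of 594 miRNAs. Each read covers a whole arm, so these levels are not divided by length.

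**Figure D1:**
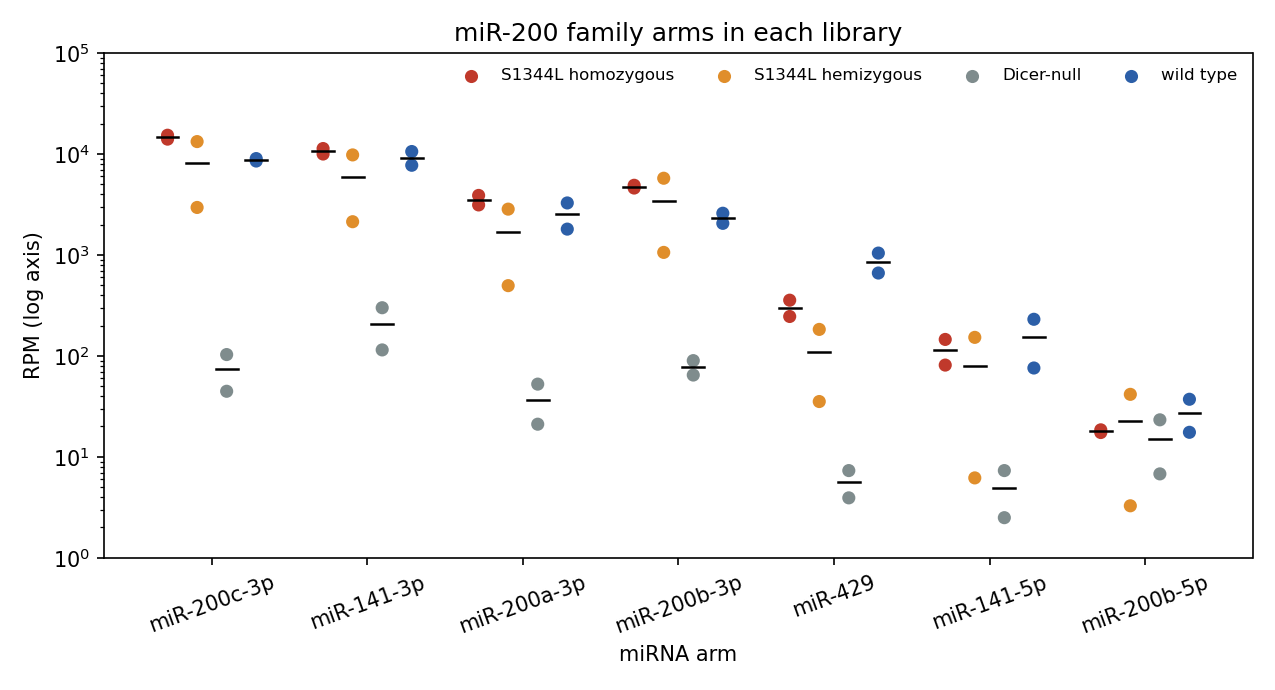
Level of each family arm in each library, in RPM on a log axis. Points are single libraries, short lines are means, and the genotypes run from S1344L homozygous on the left to wild type on the right of each arm. In the null libraries the 3p arms lie between 3.93 and 300.1 RPM, while miR-200b-5p lies near its level in the other genotypes. Hemizygous replicate 1 is the lower orange point throughout.

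In S1344L homozygous cells the 4 abundant 3p arms had means above those of the wild type and miR-429 a mean below it, but none of these differences passed the test. Fold changes were tested with limma on log2(RPM + 1), over all 594 miRNAs and with Benjamini-Hochberg adjustment at 0.05. Of the 7 arms, 0 were called against the wild type, where 32.2% of all miRNAs were called (9.93% higher and 22.2% lower). The number was also 0 at an unadjusted p under 0.05, a limit that every called miRNA meets as well. It was 0 with limma's voom on the recovered reads, where 201 of the 594 miRNAs were called. The median log2 fold change was 0.23 over the 7 arms and 0.52 over the 5 3p arms, against -0.04 over all miRNAs and 0.68 over all 300 arms named 3p. Among the arms, 3 had groups that did not overlap, as did 81.5% of all miRNAs.

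The first of these, miR-200b-3p, a seed-bearing guide strand aimed at ZEB1 and ZEB2, had 4898 and 4599 RPM in homozygous cells, against 2055 and 2589 RPM in the wild type. Both homozygous libraries lay above both wild-type ones. Its log2 fold change was 1.04 ± 0.89 (SE, limma adjusted p = 0.435).

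The second, miR-200c-3p, its near-identical partner from chromosome 12, had 15333 and 14028 RPM in homozygous cells, against 8514 and 9005 RPM in the wild type. The groups again did not overlap, with the homozygous libraries higher. The log2 fold change was 0.74 ± 0.85 (SE, limma adjusted p = 0.600).

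The third was miR-429, which has the same seed. It had 356 and 246 RPM in homozygous cells, against 662 and 1043 RPM in the wild type. Here both homozygous libraries were the lower ones. The log2 fold change was -1.49 ± 0.99 (SE, limma adjusted p = 0.279), and 21 of the other 296 arms named 3p had a lower one.

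The remaining 4 arms had overlapping groups. The log2 fold change was 0.52 ± 0.91 for miR-200a-3p and 0.23 ± 0.85 for miR-141-3p, which carry the other seed. It was -0.28 ± 1.00 for miR-141-5p and -0.49 ± 0.96 for miR-200b-5p, the passenger strands. Their limma adjusted p-values lay between 0.739 and 0.894. Over all arms named 5p the median was -2.25, and 48.9% of those arms were called lower.

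The spread in this model comes from all 8 libraries, including the hemizygous pair that lies far apart. In a limma fit of the homozygous and wild-type libraries alone, miR-200b-3p (adjusted p = 0.00156) and miR-200c-3p (adjusted p = 0.00262) were called higher and miR-429 (adjusted p = 0.00256) lower, with the same fold changes. That fit called 372 of the 594 miRNAs, against 191 in the fit of all libraries. With 1 hemizygous library left out, whichever it was, miR-200b-3p and miR-429 were called, among 285 or 288 miRNAs. Under 4 other scalings 3 to 5 arms were called, among 313 to 403 miRNAs, so the calls gained in the family came with a general rise in calls.

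In S1344L hemizygous cells miR-429 was the 1 arm of 7 called, and it was lower than in the wild type. Of all 594 miRNAs, 34.7% were called, 4.04% higher and 30.6% lower. miR-429 had 35.3 and 183 RPM in hemizygous cells, against 662 and 1043 RPM in the wild type. Both hemizygous libraries were below both wild-type ones, and 53.0% of all miRNAs had groups that did not overlap. The log2 fold change was -3.35 ± 0.99 (SE, limma adjusted p = 0.00351), a 10.2-fold lower level, and 10 of the other 296 arms named 3p had a lower one. Without hemizygous replicate 1 the fold change was -2.18 (limma adjusted p = 0.0177). The call was lost without wild-type replicate 2 (limma adjusted p = 0.129) and in a fit of these 2 genotypes alone (limma adjusted p = 0.0674).

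The other 6 arms had overlapping groups, and their hemizygous libraries lay far apart. miR-200b-3p had 1060 and 5750 RPM in hemizygous cells, against 2055 and 2589 RPM in the wild type. The lower value is that of hemizygous replicate 1 and the higher that of replicate 2, so the wild type lies between them. Log2 fold changes of the 6 arms ran between -2.01 ± 1.00 for miR-141-5p (SE, limma adjusted p = 0.111) and 0.10 ± 0.89 for miR-200b-3p (adjusted p = 0.952). The median over the 7 arms was -0.98, against -0.89 over all miRNAs. Over the 5 3p arms it was also -0.98, against -0.18 over all arms named 3p. Over all arms named 5p it was -2.93. Without hemizygous replicate 1, miR-200b-3p was called higher, at 1.32, and miR-200a-3p, miR-200c-3p, miR-141-3p and both 5p arms changed sign.

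**Figure D2:**
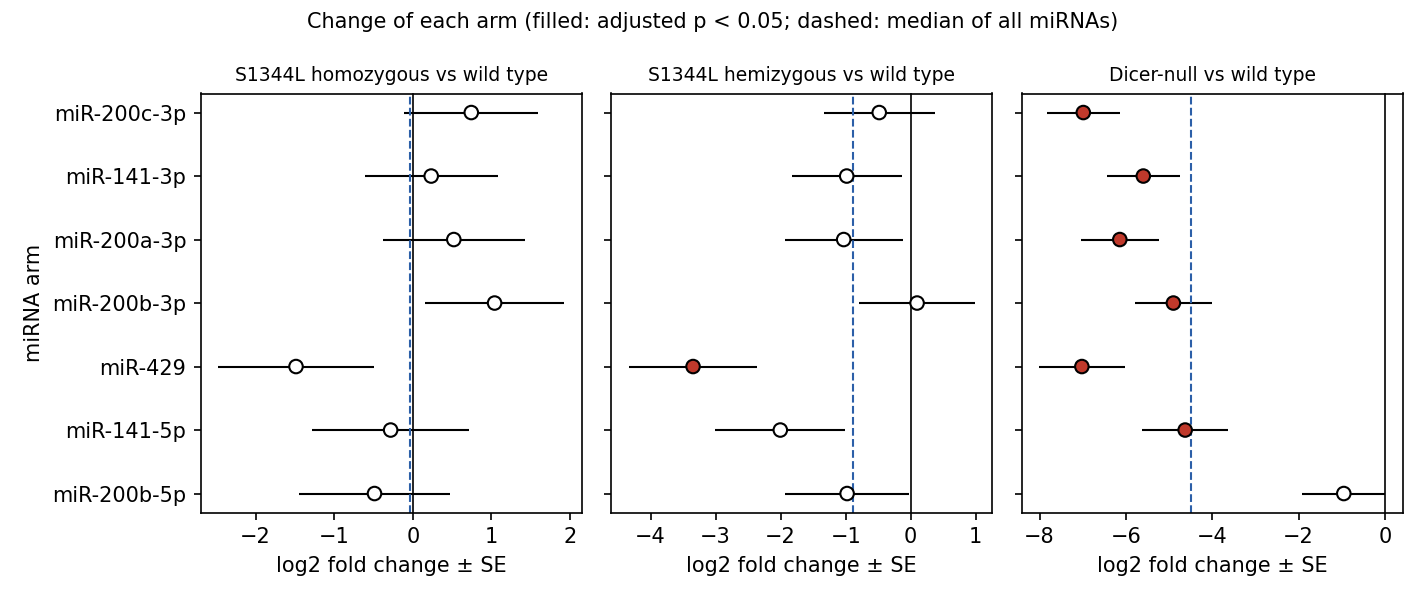
Log2 fold change of each arm against the wild type, with its standard error, in homozygous, hemizygous and null cells from left to right (2 libraries each). Filled points have an adjusted p under 0.05 and dashed lines mark the median of all miRNAs. miR-429 is the lowest point in both S1344L panels, at -1.49 and -3.35, and miR-200b-5p, at -0.95, is the highest in the null panel.

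In Dicer-null cells 6 of the 7 arms were lower than in the wild type, and miR-200b-5p was not called. Of all miRNAs, 87.2% were called lower, so a loss is the common state in these libraries. The median log2 fold change of the 7 arms was -5.60, against -4.49 over all miRNAs. In bulk libraries, fewer cells with a miRNA and less of it per cell cannot be told apart.

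The deepest losses were those of miR-200c-3p and miR-429. miR-200c-3p had 44.7 and 103 RPM in null cells, against 8514 and 9005 RPM in the wild type. Its log2 fold change was -6.99 ± 0.85 (SE, limma adjusted p = 1.02e-13). miR-429 was counted with 5 reads in each null library, against 850 and 1219 reads in the wild type, and its log2 fold change was -7.02 ± 0.99 (SE, limma adjusted p = 4.06e-11). Only 6 of the other 296 arms named 3p fell further than either.

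The other 3p arms had log2 fold changes of -6.14 (miR-200a-3p), -5.60 (miR-141-3p) and -4.90 (miR-200b-3p). miR-141-5p, with 3 and 5 reads in the null libraries against 97 and 269 in the wild type, fell by 4.63, a value that depends on the pseudocount at so few reads. Limma adjusted p-values of these 4 arms lay between 2.12e-10 and 7.59e-06. In each of them both null libraries were below both wild-type ones, and the groups of 92.8% of all miRNAs did not overlap. Scalings that set the miRNA content of the libraries equal shrank these losses. The call of miR-141-5p was lost under all 4 other scalings, that of miR-200b-3p under 3 of them and that of miR-141-3p under upper-quartile scaling, where miR-200b-3p and miR-141-5p were near 0, at 0.08 and 0.05.

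For miR-200b-5p, the strand not called, there were 9 and 17 reads in null cells, against 22 and 43 reads in the wild type. In RPM these are 6.79 and 23.3 in null cells, against 17.5 and 37.2 in the wild type, so the groups overlapped. The log2 fold change was -0.95 ± 0.96 (SE, limma adjusted p = 0.337), which ranked 52nd of 594 from the highest. By mean RPM this passenger strand ranked 278th in null cells, against 494th in the wild type. Under each of the 4 other scalings miR-200b-5p was called higher than in the wild type. Its change there was 2.78 to 3.79 (limma adjusted p between 0.00166 and 0.00790). Those scalings called 262 to 345 of all 594 miRNAs in either direction. They moved the median change over all miRNAs from -4.49 to between -0.84 and 0.24.

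On the deposited scale, most arms of the family were higher in both S1344L mutants than in the null. In homozygous cells 6 of 7 arms were higher than in null cells (76.3% of all miRNAs were called higher), with log2 differences between 4.35 for miR-141-5p and 7.73 for miR-200c-3p. In hemizygous cells the same 6 arms were higher (63.8% of all miRNAs), with differences between 2.62 for miR-141-5p and 6.50 for miR-200c-3p. miR-200b-5p differed by 0.46 ± 0.96 in homozygous and by -0.03 ± 0.96 in hemizygous cells, and was called in neither on the deposited scale (SE, limma adjusted p = 0.663 and 0.982). Several of these calls depend on the scaling. Under the 4 other scalings miR-141-5p was called against the null in neither mutant, and in hemizygous cells miR-429 was not called under 3 of them, at 0.69 to 0.72. Under all 4, miR-200b-5p was called lower than in the null, by -3.44 to -3.19 in homozygous and by -3.16 to -2.91 in hemizygous cells (limma adjusted p between 0.000992 and 0.00418). Arms named 5p were also lower in general under these scalings. Their medians were -1.82 to -1.61 in homozygous and -1.73 to -1.49 in hemizygous cells. Of all 594 miRNAs, 397 to 408 and 383 to 395 were called in either direction. The hemizygous call of miR-141-5p, a strand with 8 and 115 reads there, was also lost in a fit of these 2 genotypes alone, without hemizygous replicate 2 and without null replicate 1. These comparisons share the null libraries with each other and each mutant's libraries with the comparisons to the wild type.

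Between the S1344L mutants, hemizygous against homozygous, 0 of 7 arms and 0.00% of all miRNAs were called by limma; of the 7 arms, 0 had an unadjusted p under 0.05 and 0 were called by voom. Log2 differences ran between -1.86 ± 0.99 for miR-429 and -0.49 ± 0.96 for miR-200b-5p (SE, limma adjusted p between 0.661 and 0.718), against a median of -0.85 over all miRNAs. The groups of 4 arms did not overlap, as in 22.6% of all miRNAs. Without hemizygous replicate 2 all 7 were called lower, where 433 of 594 miRNAs were called, and without hemizygous replicate 1 0 of 7 and 0 of 594 were.

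Ratios between arms of the same library do not depend on the factor by which a library is scaled, although quantile normalization, which is no single factor, changes them. They were taken with 0.5 of a read added to each count. The ratios of miR-429 to its neighbours were chosen after its values had been seen. The ratio of miR-200b-3p to miR-429 was 13.7 and 18.7 in homozygous cells, 30.0 and 31.4 in hemizygous cells and 16.5 and 12.3 in null cells, against 3.10 and 2.48 in the wild type. All 6 mutant libraries lay above both wild-type libraries, and the 2 hemizygous libraries, so different in level, were close together. On the log2 scale the mean ratio was above that of the wild type by 2.53 in homozygous, 3.47 in hemizygous and 2.36 in null cells, with an SD of 0.31, 0.05 and 0.30 within these genotypes and of 0.23 within the wild type (n = 2 each). The null ratios rest on 90 and 67 reads of miR-200b-3p over 5 reads of miR-429 in each library, where the added 0.5 of a read lowers the ratio.

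The ratio of miR-200a-3p to miR-429, from hairpins of the same cluster, moved the same way. It was 10.9 and 12.7 in homozygous, 14.1 and 15.5 in hemizygous and 5.36 and 7.18 in null cells, against 2.72 and 3.14 in the wild type. Again no mutant library overlapped the wild type. Among single miRNAs, 81.5%, 53.0% and 92.8% of all 594 had RPM that did not overlap the wild type in homozygous, hemizygous and null cells. Within the cluster miR-200a-3p was also lower relative to miR-200b-3p: the log2 ratio of miR-200a-3p to miR-200b-3p was -0.44 ± 0.16, -1.06 ± 0.05 and -1.20 ± 0.60 in homozygous, hemizygous and null cells, against 0.07 ± 0.37 in the wild type (SD, n = 2 each).

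In the chromosome 12 cluster the S1344L mutants and the null moved in opposite directions. The ratio of miR-200c-3p to miR-141-3p was 1.35 and 1.40 in homozygous and 1.38 and 1.35 in hemizygous cells, against 1.10 and 0.852 in the wild type. It was 0.389 and 0.344 in null cells, below both wild-type libraries. Across the clusters, the ratio of miR-200c-3p to miR-200b-3p did not overlap the wild type in any mutant genotype either. It differed on the log2 scale by -0.30, -0.58 and -2.09 in homozygous, hemizygous and null cells. The ratio of miR-141-3p to miR-141-5p overlapped in every mutant genotype, and that of miR-141-3p to miR-200a-3p in hemizygous cells. With 2 libraries against 2, an exact two-sided permutation test cannot give a p below 0.333, so these ratios are given without a call.

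**Figure D3:**
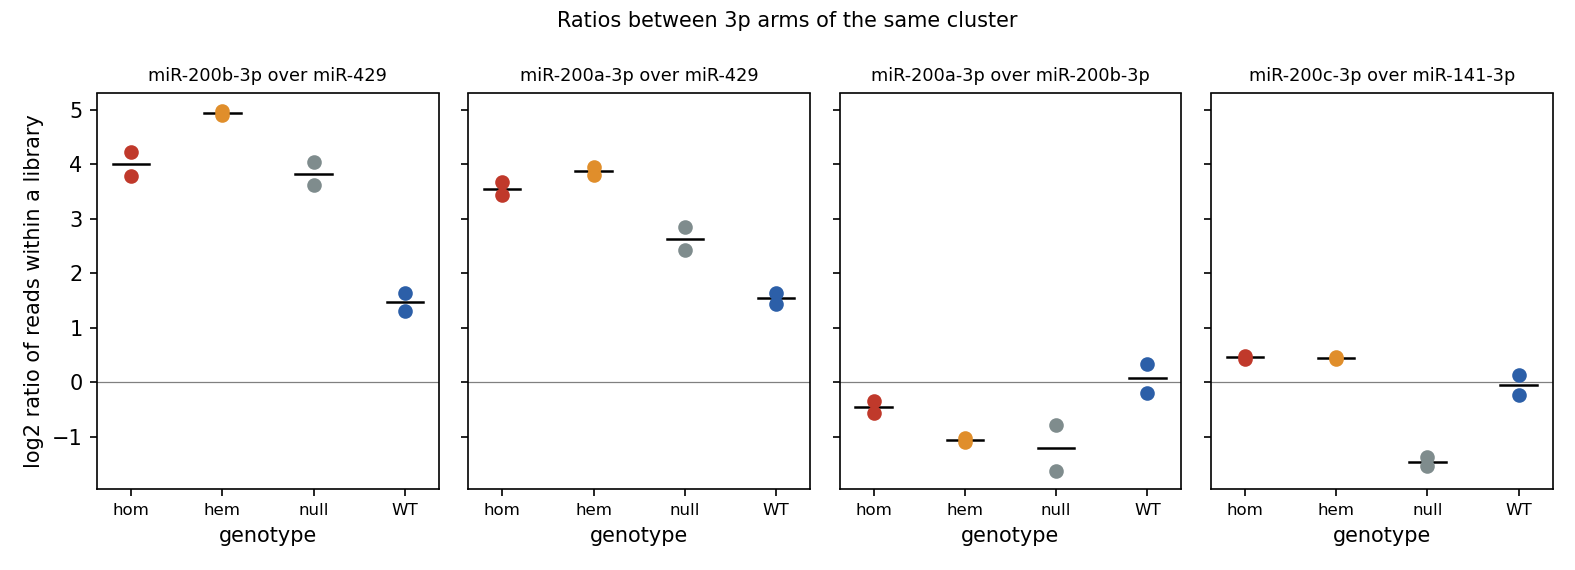
Log2 ratio of reads, with 0.5 of a read added to each count, between 3p arms of the same cluster within each library. Points are libraries and short lines are means, for homozygous (hom), hemizygous (hem), null and wild-type (WT) cells. Both ratios to miR-429 are higher in every mutant library than in the wild type, and miR-200c-3p over miR-141-3p is above the wild type in the S1344L libraries and below it in the null libraries.

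The makeup of the family shows the same shifts as shares of reads. miR-429 supplied 0.990% and 0.764% of the family's reads in homozygous, 0.523% and 0.570% in hemizygous and 1.40% and 1.15% in null cells, against 3.17% and 3.90% in the wild type. miR-200c-3p supplied 42.6% and 43.7% in homozygous, 44.2% and 41.4% in hemizygous and 17.3% and 17.7% in null cells, against 40.8% and 33.7% in the wild type. In the null miR-141-3p was the largest member, at 44.7% and 51.7% of family reads, against 37.1% and 39.5% in the wild type.

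As a share of all miRNA reads, the family held 1.48% ± 0.01 in homozygous, 1.12% ± 0.29 in hemizygous and 0.266% ± 0.070 in null cells, against 1.07% ± 0.10 in the wild type (SD, n = 2 each). Homozygous libraries lay above and null libraries below both wild-type libraries, with an exact two-sided permutation p of 0.333 in each case, the smallest that 2 against 2 libraries allow. Hemizygous libraries overlapped the wild type (exact permutation p = 1). In single libraries the 95% Wilson intervals are narrow (1.45% to 1.49% in homozygous replicate 2, 0.195% to 0.240% in null replicate 1) and cover counting error only.

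Among the 3p reads, the AAUACUG seed of miR-200b-3p, miR-200c-3p and miR-429 accounted for 58.3% ± 1.05 in homozygous, 60.5% ± 0.21 in hemizygous and 40.7% ± 6.58 in null cells, against 50.9% ± 4.51 in the wild type (SD, n = 2 each). No mutant genotype overlapped the wild type (exact two-sided permutation p = 0.333 each). The chromosome 1 cluster held 25.2% ± 0.40 of family reads in homozygous and 25.7% ± 2.61 in hemizygous cells, overlapping the wild type at 23.9% ± 2.97 (SD, n = 2 each). In null cells it held 33.3% ± 5.46, with both libraries above the wild type.

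The 2 measured passenger strands made up 0.379% ± 0.106 of family reads in homozygous, 0.367% ± 0.334 in hemizygous and 4.21% ± 1.21 in null cells, against 0.721% ± 0.392 in the wild type (SD, n = 2 each). The S1344L libraries overlapped the wild type, and both null libraries lay above it. The null share rests on 12 and 22 reads.

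Both strands were measured for 2 hairpins of the family, miR-200b and miR-141, among 186 hairpins in the table. The balance of a hairpin was taken as the log2 ratio of its 3p to its 5p RPM, each with 1 added. The miR-200b balance was 7.97 and 7.96 in homozygous, 7.95 and 7.08 in hemizygous and 3.08 and 1.90 in null cells, against 6.79 and 6.08 in the wild type. Both S1344L genotypes lay above the wild type and the null below it. In homozygous cells it moved toward 3p by 1.53 ± 0.64 (SE, limma adjusted p = 0.0391), where 79.0% of all hairpins were called toward 3p. The call was lost without either homozygous library or wild-type replicate 2 (limma adjusted p between 0.135 and 0.179).

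In hemizygous cells the miR-200b balance moved by 1.08 ± 0.64 (SE, limma adjusted p = 0.133) and was not called, where 77.4% of hairpins were called toward 3p. In null cells it moved toward 5p by -3.95 ± 0.64 (SE, limma adjusted p = 0.000302), where 18.3% of hairpins were called toward 5p. It ranked 181st of 186 there, counted from the largest move toward 3p.

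The miR-141 balance was 6.27 and 6.93 in homozygous, 8.21 and 5.99 in hemizygous and 5.05 and 5.18 in null cells, against 6.65 and 5.51 in the wild type. The S1344L groups overlapped the wild type. The null values, which rest on 3 and 5 reads of the 5p strand, lay below it with 1 RPM added, but with 0.5 of a read added to each count in place of it null replicate 1 and wild-type replicate 2 had the same ratio, 45.9. The changes were 0.52 ± 0.75 in homozygous, 1.02 ± 0.75 in hemizygous and -0.97 ± 0.75 in null cells, and none was called (SE, limma adjusted p = 0.538, 0.220 and 0.306). With a pseudocount of 5 RPM the null change was -1.72 and was called toward 5p (limma adjusted p = 0.0284).

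Against other hairpins, the S1344L shifts of the family were small. In homozygous cells miR-200b ranked 145th and miR-141 164th of 186, and in hemizygous cells 152nd and 156th. The median hairpin moved toward 3p by 3.29 in homozygous and 2.87 in hemizygous cells. Both family hairpins already gave more 3p than 5p in the wild type, as did 71 hairpins in all, whose median moves were 2.26 and 2.16. Of those 71, 67.6% were called toward 3p in homozygous and 63.4% in hemizygous cells, and 0 in null cells, where their median was -1.19. This grouping uses wild-type values that also enter the changes.

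**Figure D4:**
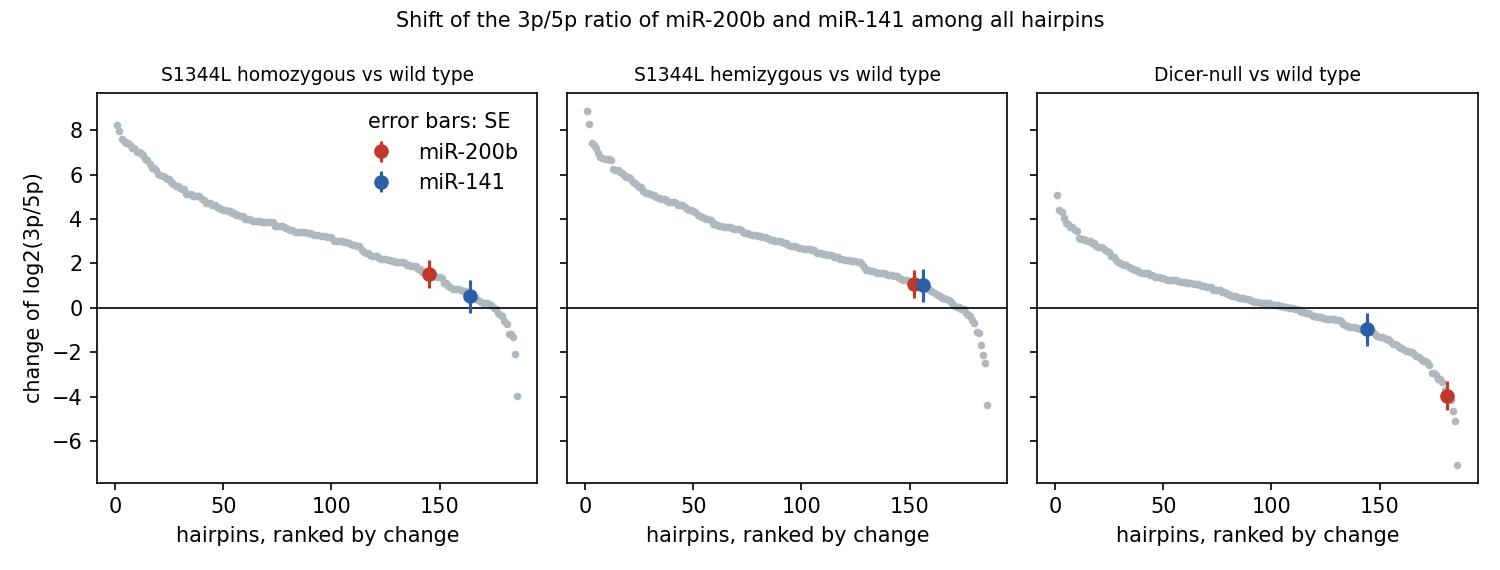
Change of log2(3p/5p) against the wild type for all 186 hairpins, ranked from the largest move toward 3p, in homozygous, hemizygous and null cells from left to right. Grey points are single hairpins, and miR-200b and miR-141 are shown with standard errors. Both lie in the right-hand, least shifted part of the S1344L panels, and miR-200b, at -3.95, is near the far end toward 5p in the null panel.

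Other miRNAs linked to epithelial cells did not all follow the family. Of 9 listed names 8 had a row. In homozygous cells 0 were higher and 4 lower than in the wild type, where 22.2% of all miRNAs were called lower. In hemizygous cells 0 were higher and 4 lower, where 30.6% of all miRNAs were lower. In null cells 0 were higher and 8 lower, where 87.2% of all miRNAs were lower. The 4 lower in both S1344L genotypes were miR-205-5p, miR-182-5p, miR-183-5p and miR-34a-5p, all 5p strands, and 48.9% of all arms named 5p were called lower in homozygous and 60.8% in hemizygous cells. miR-205-5p, a regulator of ZEB1 and ZEB2 as the miR-200 family is, had 587 and 518 RPM in homozygous cells, against 9624 and 10920 RPM in the wild type. Its groups did not overlap, and its log2 fold change was -4.21 ± 0.90 (SE, limma adjusted p = 6.76e-05).

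The cluster of miR-182, miR-183 and miR-96 is known from sensory organs and epithelia. The miR-182 and miR-183 5p arms fell by 4.21 and 4.22 on the log2 scale in homozygous cells (limma adjusted p = 0.000141 and 0.000157). miR-96-5p of that cluster was not called, at -1.42 ± 0.85 (SE, limma adjusted p = 0.215). The 3p strands of the list were not called in S1344L cells, with homozygous changes of 0.93 for miR-183-3p, 0.06 for miR-203a-3p and -0.21 for miR-375-3p. The median of the list was -2.82 in homozygous, -3.39 in hemizygous and -5.07 in null cells.

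Of 10 listed miRNAs linked to mesenchyme, 7 had a row. In homozygous cells 0 of them were called, where 32.2% of all miRNAs were, with a median of -0.58. Of these, 1 had an unadjusted limma p under 0.05, miR-21-5p at -1.62 ± 0.82 (SE, adjusted p = 0.126). The homozygous median over all arms named 5p was lower, at -2.25, and 48.9% of those arms were called lower. In hemizygous cells, where 30.6% of all miRNAs and 60.8% of arms named 5p were called lower, 2 were lower, miR-21-5p by -2.93 ± 0.82 (SE, limma adjusted p = 0.00201) and miR-100-5p by -2.68 ± 0.99 (adjusted p = 0.0219), and none was higher. In null cells all 7 with a row were lower, with a median of -4.79, where 87.2% of all miRNAs were called lower.

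Over the 8 libraries, the mean log2(RPM + 1) profile of the 5 3p arms was most like those of miR-519d-3p (Pearson r = 0.999), miR-203a-3p (0.999) and miR-27a-3p (0.998). Of 487 other miRNAs compared, 256 had r over 0.9, so such likeness was common. All miRNAs of a library share the denominator of that library. The mean profile of the 2 5p arms was most like those of miR-19b-1-5p (0.960), miR-519d-5p (0.959) and miR-373-5p (0.957), and 16 of 487 had r over 0.9.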

How the data were processed

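Small RNA libraries from H1 cells were made by ligating linkers to total RNA with added spike-ins, size selection on gels and PCR, per the labels' protocols. Per the submitters' processing notes, cutadapt, limma and hg38 were used. How reads were aligned, counted and scaled is not given in the labels or notes. The deposited values are log2 of (reads + 0.5) scaled to a denominator that the authors set, as read from the values, and reads could be computed back to within 7.31e-09 of a whole number. CPM had been planned for, so the deposited log2 values were turned back to RPM. One read corresponds to 0.715 to 1.33 RPM.

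All 594 miRNAs passed the filter (5 RPM in 2 libraries). limma 3.58.1 in R 4.3.3 was fitted to log2(RPM + 1) with a trend and 4 group means over all 8 libraries, two-sided, with Benjamini-Hochberg adjustment at 0.05. Its prior degrees of freedom were estimated as infinite, so the spread of an arm is that of all miRNAs of like level. Log2(3p/5p) of 186 hairpins was fitted with the same model, but there the prior degrees of freedom were estimated as 10.5. Shares were compared with exact permutation tests. Fold changes of low miRNAs are understated on this scale. The limma script was tested on simulated data. Intervals, and the limit of 3 reads for a count of 0, hold counting error alone. The chi-square between replicates, divided by its degrees of freedom, was 10.5 to 84.5, so replicates differed by more than counting error.

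The members and lists were chosen with earlier results of these data known. All arms with a row were named. Of the listed epithelial and mesenchymal miRNAs, up to 4 were to be named by highest wild-type mean; miR-34a-5p, the 3p arms and the mesenchymal miRNAs that passed a test were named after their values were seen. Alternatives changed the pseudocount, filter, scaling, model and libraries.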

Additional observations from a re-analysis of the deposited data

How the results depend on the processing

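With 2 libraries per genotype, differences of the size of the spread between replicates could not be told from 0, and low counts carry wide counting error (4 to 43 reads of miR-200b-5p over all libraries, 8 of miR-141-5p in hemizygous replicate 1, and 3 to 5 of miR-141-5p and miR-429 in null libraries). Other scalings moved the median of all miRNAs against the wild type, which was -0.04, -0.89 and -4.49 in homozygous, hemizygous and null cells as deposited, and -0.10, -0.19 and -0.84 with libraries scaled to their own miRNA reads. The replicate numbers were not taken to pair the samples. The correlation of same-numbered deviations was 0.62 between hemizygous and wild-type libraries. Between the other genotypes it lay between -0.11 and 0.10. With the replicate number as a block the counts of called arms were 0, 1 and 6 in homozygous, hemizygous and null cells against the wild type, unchanged, and no other call changed. Other pseudocounts and filters and limma's voom moved no count of called arms by over 1.5 times. The cause of the changes below was not tested.

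The number of called arms in homozygous cells against the wild type (0) was 3 with libraries scaled to their own miRNA reads, 5 with median-ratio size factors, 4 with upper-quartile scaling, 3 with quantile normalization and 3 in a fit of these 2 genotypes. Leaving out 1 library gave 0 to 2. In hemizygous cells against the wild type (1) the same settings gave 2, 3, 5, 3 and 0. Of all 594 miRNAs they called 312, 363, 406, 348 and 109 there, against 206 in the fit of all libraries. The family's count thus rose and fell with the general number of calls. Leaving out 1 library moved it both up and down. For hemizygous against homozygous cells (0) leaving out 1 library gave 0 to 7. In null cells against the wild type leaving out any 1 library gave 6. The number of hairpins with a shifted balance was 0 to 1 on leaving out 1 library in homozygous cells (1) and in hemizygous cells (0), and 2 with a pseudocount of 5 RPM in null cells (1).

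Without the 5 most abundant wild-type miRNAs in the denominator, the family's share differed from the wild type by 0.961, 0.419 and -1.20 percentage points in homozygous, hemizygous and null cells, in place of 0.404, 0.047 and -0.807. Leaving out 1 library, the hemizygous difference ran between -0.155 and 0.249 points. The difference in the chromosome 1 cluster's share ran between -0.763 and 3.44 points in homozygous and between -0.265 and 3.93 in hemizygous cells.

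Single log2 values that changed sign follow. In homozygous cells against the wild type, miR-141-5p (-0.28) was 0.13 with median-ratio size factors, 0.60 with upper-quartile scaling and 0.53 with quantile normalization, and miR-200b-5p (-0.49) was 0.35 with upper-quartile scaling. In hemizygous cells against the wild type, median-ratio, upper-quartile and quantile scaling gave 0.33, 0.84 and 0.091 for miR-141-3p (-0.98), 0.28, 0.80 and 0.67 for miR-200a-3p (-1.03), and 0.83, 1.34 and 0.67 for miR-200c-3p (-0.48), which was 0.25 when scaled to miRNA reads. miR-200b-5p (-0.98) was 0.19 with median-ratio and 0.64 with upper-quartile scaling. For hemizygous against homozygous cells, miR-200b-5p (-0.49) was 0.18, 0.28, 0.29 and 0.28 with miRNA-read, median-ratio, upper-quartile and quantile scaling. In null cells against the wild type upper-quartile scaling gave 0.049 for miR-141-5p (-4.63) and 0.085 for miR-200b-3p (-4.90). For miR-200b-5p (-0.95) the same 4 scalings gave 2.78, 3.35, 3.79 and 2.83 there, each called higher. They called 345, 288, 262 and 266 of all 594 miRNAs in that comparison. For homozygous against null cells they gave -3.30, -3.44, -3.44 and -3.19 for miR-200b-5p (0.46), each called lower, and 0.68, 0.55, 0.56 and 1.17 for miR-141-5p (4.35), none called. For hemizygous against null cells, miR-141-5p (2.62) was -0.29, -0.32 and -0.30 with the first 3, and miR-200b-5p (-0.03) was 0.11 with a pseudocount of 5 RPM and -3.11, -3.16, -3.15 and -2.91, each called lower, with the 4 scalings. Medians over all arms named 5p were also below the null under the 4 scalings. They were -1.82 to -1.61 in homozygous and -1.73 to -1.49 in hemizygous cells.

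On leaving out 1 library, the following changed sign within their range. Against the wild type in homozygous cells, miR-141-5p ran from -1.08 to 0.51, miR-200b-5p from -1.01 to 0.035 and the miR-141 balance from -0.053 to 1.09. Against the wild type in hemizygous cells, the ranges were -2.08 to 0.11 (miR-141-3p), -4.21 to 0.20 (miR-141-5p), -2.29 to 0.23 (miR-200a-3p), -2.64 to 0.68 (miR-200b-5p), -1.57 to 0.60 (miR-200c-3p), -1.12 to 1.32 (miR-200b-3p) and -0.089 to 2.13 (miR-141 balance). For hemizygous against homozygous cells they were -3.93 to 0.49 (miR-141-5p), -2.16 to 0.28 (miR-200b-3p), -2.15 to 1.17 (miR-200b-5p) and -0.61 to 1.62 (miR-141 balance). Against the null, miR-200b-5p ran from -0.36 to 1.28 in homozygous and from -1.68 to 1.63 in hemizygous cells. The hemizygous extremes are those without either hemizygous library, which lie far apart.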
